A study of Mus musculus with 6 samples.

Results

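The genes described here are 10 efferocytosis receptors and bridging molecules, Mertk, Axl, Tyro3, Gas6, Pros1, Mfge8, Itgav, Itgb5, Elmo1 and Cd300lf. They were chosen by gene name, with earlier results of these data known, and all 10 were found among the 54532 genes of the deposited count table. RNA was measured by sequencing in 6 libraries of Kupffer cells, macrophages that reside in the liver sinusoids, sorted from male mice that had eaten a high fat diet for 8 weeks, starting at 8 weeks of age. The Trem2 KO group (3 libraries) came from mice that lack Trem2, and the WT group (3 libraries) from their wild-type littermates. The diet was shared by both groups, so no chow-fed comparison is made. The sources used here do not give the deleted part of Trem2, the strain, or whether each library is a separate mouse or a pool. The p-values therefore measure the spread between these libraries, which may be technical.

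Efferocytosis is the uptake of dying cells by phagocytes. A dying cell shows phosphatidylserine on its surface, and phagocytes bind it either directly or through soluble bridging proteins. The TAM receptor tyrosine kinases (Tyro3, Axl and Mertk) bind it through the vitamin K-dependent ligands Gas6 and protein S (Pros1). Integrin alpha V beta 5 (Itgav with Itgb5) binds it through Mfge8, a milk fat globule protein. Below the receptors, Elmo1 works with a Dock protein to activate Rac and reshape the actin cytoskeleton. Cd300lf is a lipid-binding receptor of myeloid cells, one of a family encoded in a cluster. Kupffer cells clear dying cells and platelets from the blood of the liver, and the comparison asks how the transcripts of this machinery differ when TREM2, itself a receptor for lipids of dying cells, is missing.

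Total counts ran from 15799351 to 17135603 per library. Trem2 was read at 16.6, 17.4 and 14.5 CPM (counts scaled to library size with TMM factors) in the 3 Trem2 KO libraries, against 84.8, 90.1 and 84.3 CPM in the 3 WT libraries, in the direction of the labels in all 6. The labelled cell type was checked with 12 Kupffer cell markers. All were present, such as Clec4f at a mean of 11197 CPM in Trem2 KO and 12329 CPM in WT libraries, and 0 were called higher and 10 lower, where 15.3% of all tested genes were called higher and 15.1% lower. The list summed to 42817 to 43231 CPM in Trem2 KO libraries, against 47960 to 48932 CPM in WT libraries. The libraries of a group were very alike, with a common biological coefficient of variation of 0.0378 over all genes.

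Of the 10 genes, 9 had enough reads to be tested and Tyro3 did not. In Trem2 KO cells Mertk, Itgav, Itgb5 and Cd300lf rose and Axl and Pros1 fell, while Gas6, Mfge8 and Elmo1 did not pass the test (edgeR quasi-likelihood test, adjusted p under 0.05 over 13776 genes). Of all 13776 genes tested, 15.3% were called higher and 15.1% lower, and the 4 higher and 2 lower calls among the 10 genes are to be read beside those shares (30.4% in either direction). That split of 2103 higher and 2079 lower calls became 2517 higher and 1588 lower with total counts in place of TMM, while the calls among the 10 genes stayed as given. The libraries of the groups did not overlap for the same 6 genes, and for 41.6% of all tested genes. The 6 called genes were all read at over 100 CPM, and of the 2064 tested genes with a mean of at least 100 CPM, a limit chosen after the values were seen, 59.1% were called (27% higher and 32.1% lower). The median log2 change of the 9 tested genes was 0.16, against -0.01 over all tested genes, and their median absolute log2 change was 0.19, against 0.16. The differences were small: among the called genes Pros1 fell by 12.2% and Cd300lf rose by 46.4%, with the other 4 between. The calls also rest on the small spread of these libraries. With a coefficient of variation of 0.1 set for every gene, a choice made after the data were seen, Cd300lf alone stayed called (edgeR likelihood ratio test, adjusted p = 0.000166), and with 0.2 none of the 10 genes was (adjusted p = 0.328 for Cd300lf). In bulk RNA, fewer cells of a type and less RNA per cell cannot be told apart.

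**Figure D1:**
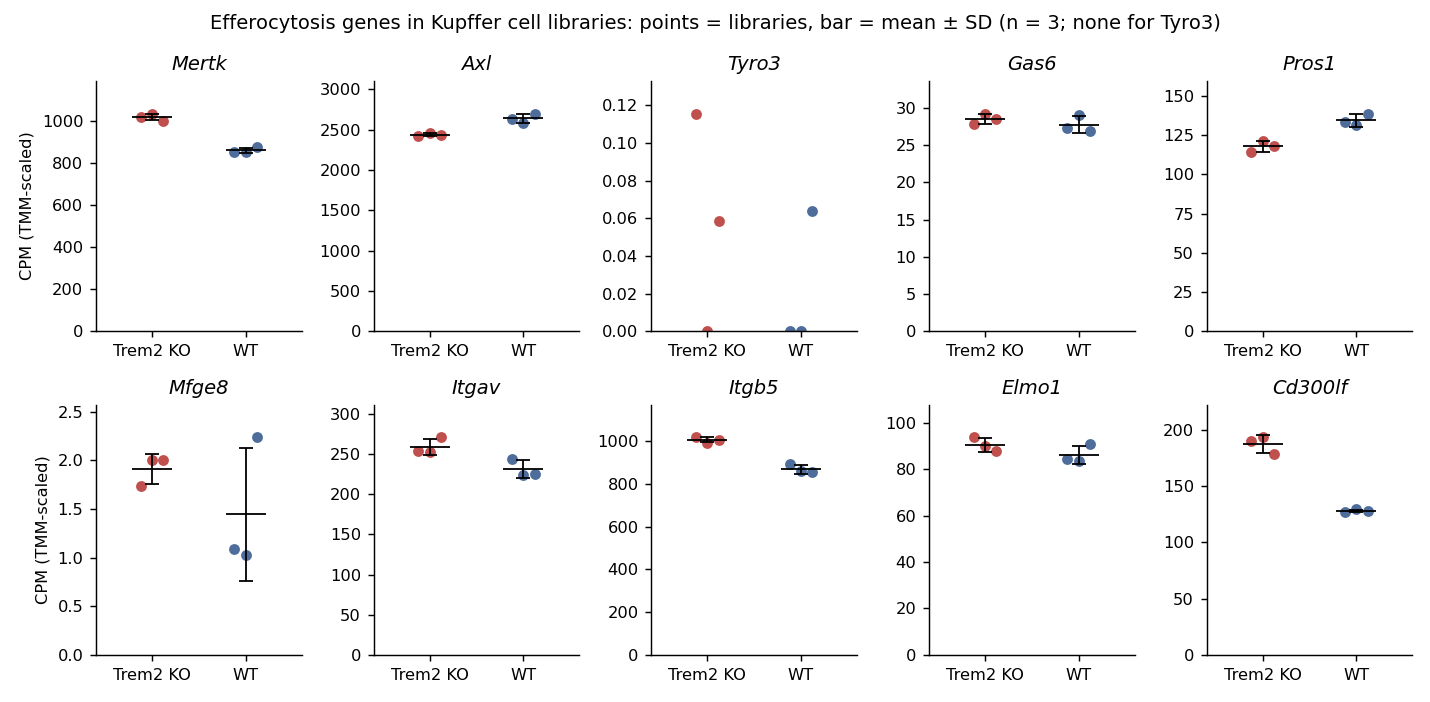
TMM-scaled CPM of the 10 genes in each library (points), with Trem2 KO on the left and WT on the right of each panel, and the mean and SD as black bars (n = 3 per group, none drawn for Tyro3). The groups do not overlap for Mertk, Axl, Pros1, Itgav, Itgb5 and Cd300lf; Axl and Pros1 are lower in the Trem2 KO libraries and the other 4 are higher.

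Mertk encodes the TAM kinase best known for engulfment by macrophages at rest. The gene (ENSMUSG00000014361) lies at chr2:128698956-128802894 on the plus strand of GRCm38. It was read at 1020, 1035 and 1002 CPM in Trem2 KO libraries, against 855, 851 and 875 CPM in WT libraries. Every Trem2 KO library stood above every WT library, which 20.9% of all tested genes also showed. Its log2 fold change was 0.24 (SE 0.0255, 95% interval 0.19 to 0.30, n = 3 per group, edgeR adjusted p = 2.41e-11). Within the gene lie the snoRNA Gm23172 and the antisense RNA Gm14011, without shared exon bases, which had 300 and 67 reads over the libraries against 92112 for Mertk.

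Axl encodes the TAM kinase that depends on Gas6 and is better known from inflamed tissue, although Kupffer cells of mice are known to carry it at rest. The gene (ENSMUSG00000002602) lies at chr7:25757273-25788705 on the minus strand. It was read at 2420, 2457 and 2437 CPM in Trem2 KO libraries, against 2637, 2589 and 2699 CPM in WT libraries. Every Trem2 KO library stood below every WT library, as for 20.7% of all tested genes. Its log2 fold change was -0.12 (SE 0.0230, 95% interval -0.16 to -0.07, edgeR adjusted p = 6.65e-05), so it fell by 7.72%. The Kupffer cell markers summed to less in the same Trem2 KO libraries, as given above. Their part in the readings of Axl and of the other efferocytosis genes, those that rose included, was not tested. Of all tested genes, 39.2% had a smaller absolute log2 change than Axl, and 67.2% had a smaller one than Mertk.

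Tyro3, the TAM kinase of neurons and some immune cells (ENSMUSG00000027298, chr2:119797733-119818104, plus strand), was close to absent. It had 2, 0 and 1 reads in the Trem2 KO libraries and 0, 0 and 1 reads in the WT libraries. These counts are under the limit of 3 reads that a count of 0 allows in a library, which corresponds to 0.173 to 0.192 CPM and covers counting error only. No difference in Tyro3 was detectable at this depth.

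The windows of 250 bases before the annotated start of Mertk and of Axl are shown because these 2 kinases moved in opposite directions in the same libraries. Both come from RefSeq on build GRCm38.p6, Mertk from chr2:128698665-128698914 on the plus strand and Axl from chr7:25788734-25788983 on the minus strand, 5′ to 3′ along the gene, and capitals mark every match to a searched motif. Both RefSeq starts lie slightly upstream of the gene's outermost base in the deposited table.
Mertk: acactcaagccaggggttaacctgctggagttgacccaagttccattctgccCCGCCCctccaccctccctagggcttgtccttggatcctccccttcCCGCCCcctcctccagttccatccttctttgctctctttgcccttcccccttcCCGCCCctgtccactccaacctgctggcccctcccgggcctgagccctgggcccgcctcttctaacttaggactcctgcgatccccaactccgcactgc
Axl: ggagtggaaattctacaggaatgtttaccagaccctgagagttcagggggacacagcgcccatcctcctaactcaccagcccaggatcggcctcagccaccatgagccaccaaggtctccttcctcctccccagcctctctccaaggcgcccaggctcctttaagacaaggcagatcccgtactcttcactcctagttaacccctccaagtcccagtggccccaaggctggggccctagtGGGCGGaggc
Both strands of these windows were searched for the GC box (GGGCGG), the PU.1 core (GAGGAAGT), the AP-1 site (TGANTCA), the E-box (CACGTG), the nuclear receptor half-site (AGGTCA), the LXR element (that half-site repeated in the same direction after 4 bases of any kind), an interferon response core (GAAA repeated after 2 bases of any kind), the CRE (TGACGTCA) and the TATA box (TATAAA). The Mertk window held 3 GC boxes and the Axl window 1, and neither held another of these motifs. A GC box was found in 32.7% of the 32851 promoter windows of the same length in the table, and in at least 1 window of 8 of the 10 genes. The exceptions were Itgav and Cd300lf. The windows were not matched for GC content, so the 2 shares are not a like comparison. GC content was 63.6% in the Mertk window and 60% in the Axl window, against a median of 52.4% over all windows. Over the windows of the 10 genes it ran from 43.6% to 73.2%. The exact LXR repeat was found in 0.0152% of all windows and the half-site in 14%, and neither was found in a window of the 10 genes. A match describes letters only, and a missing match says nothing about binding of the factor.

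Of the 2 TAM ligands, Pros1 passed the test and Gas6 did not, and the difference between them was not tested. Pros1, which encodes protein S, a plasma anticoagulant that also bridges phosphatidylserine to Tyro3 and Mertk, lies at chr16:62854307-62929346 on the plus strand (ENSMUSG00000022912). Its level was 114, 121 and 118 CPM in Trem2 KO libraries, against 133, 131 and 139 CPM in WT libraries. The Trem2 KO libraries were all lower. Its log2 fold change was -0.19 (SE 0.0397, 95% interval -0.27 to -0.11, edgeR adjusted p = 0.000175). Pros1 is also made by hepatocytes and endothelial cells. Most endothelial markers were higher in the same Trem2 KO libraries, as given below, and their part in the Pros1 reading was not tested. The 12 hepatocyte markers summed to 1334 to 1375 CPM in Trem2 KO libraries, against 1530 to 1585 CPM in WT libraries, with 3 called higher and 7 lower, and their part in the lower Pros1 reading was not tested.

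Gas6, the ligand that binds all TAM receptors and Axl most tightly, lies at chr8:13465374-13494490 on the minus strand (ENSMUSG00000031451). Its level was 27.9, 29.3 and 28.5 CPM in Trem2 KO libraries, against 27.3, 29.1 and 26.9 CPM in WT libraries. The groups overlapped. The log2 difference was 0.04 with a 95% interval of -0.10 to 0.18 (edgeR adjusted p = 0.714), so differences of that size stay possible in these libraries. Gas6 shares exon bases with Tmem255b on the other strand, which had 8 reads over the libraries against 2754 for Gas6.

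**Figure D2:**
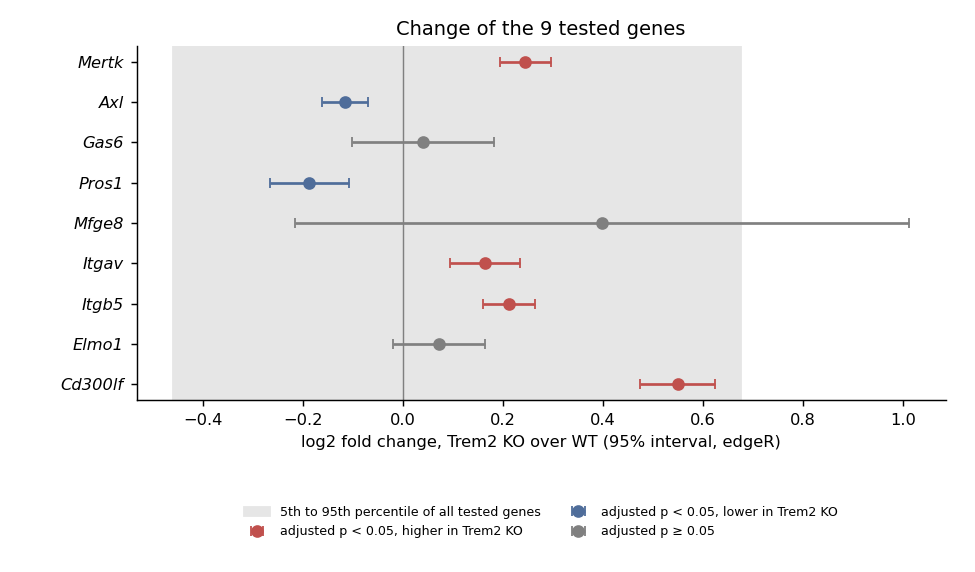
The log2 fold change of the 9 tested genes, Trem2 KO over WT, with the 95% interval of edgeR. Red points were called higher, blue points lower and grey points were not called at an adjusted p of 0.05, and the grey band spans the 5th to 95th percentile of all tested genes (-0.46 to 0.68). All 9 estimates lie inside the band, and Cd300lf has the largest change among the called genes at 0.55.

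Both subunits of the integrin that binds Mfge8 rose. Itgb5, the beta 5 subunit (ENSMUSG00000022817, chr16:33829665-33949338, plus strand), was read at 1018, 994 and 1007 CPM in Trem2 KO libraries, against 893, 860 and 854 CPM in WT libraries. The groups were well separated for this subunit. Its log2 fold change was 0.21 (SE 0.0257, 95% interval 0.16 to 0.26, edgeR adjusted p = 2e-09).

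Itgav, the alpha V subunit that also pairs with other beta chains, lies at chr2:83724397-83806916 on the plus strand (ENSMUSG00000027087). It was read at 254, 252 and 271 CPM in Trem2 KO libraries, against 244, 224 and 225 CPM in WT libraries. The groups did not overlap, but the lowest Trem2 KO library and the highest WT library lay close together. Its log2 fold change was 0.16 (SE 0.0348, 95% interval 0.09 to 0.23, edgeR adjusted p = 0.000186). Its gene model is long, at 10744 bases. With the trend of fold change on gene length removed, the value was 0.07 and the call was lost (edgeR adjusted p = 0.134, and 0.118 with the replicate number as a block as well). The rise of Itgav therefore depends on whether that trend is removed. The Itgav window before its start (chr2:83724147-83724396, plus strand, RefSeq, GRCm38.p6) is shown because it was the one window of the 10 genes with a PU.1 core, the motif of a myeloid lineage factor, here on the reverse strand and in capitals at 9 to 2 bases before the start.
Itgav: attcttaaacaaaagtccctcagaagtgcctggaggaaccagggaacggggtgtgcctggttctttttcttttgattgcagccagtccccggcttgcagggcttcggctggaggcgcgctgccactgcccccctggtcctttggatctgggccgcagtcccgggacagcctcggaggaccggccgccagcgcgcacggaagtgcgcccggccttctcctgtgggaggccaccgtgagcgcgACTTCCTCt
Of all windows in the table, 2.44% held that core. Itgav shares exon bases with Gm13684 on the other strand, which had 69 reads against 24012 for Itgav.

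Mfge8, the bridging protein for this integrin (ENSMUSG00000030605, chr7:79133768-79149060, minus strand), was barely read in these cells. It had 30, 33 and 34 reads in the Trem2 KO libraries and 17, 16 and 35 reads in the WT libraries, or 1.73, 2.003 and 2.001 CPM in Trem2 KO libraries, against 1.09, 1.02 and 2.24 CPM in WT libraries. The highest library was WT replicate 3, and the groups overlapped. The log2 difference of 0.40 had a 95% interval of -0.22 to 1.01 and was not called (edgeR adjusted p = 0.353). Without WT replicate 3 it was 0.85 (edgeR adjusted p = 0.0666), still not called. Without WT replicate 1 it was 0.23 and without WT replicate 2 it was 0.20 (edgeR adjusted p = 0.674 and 0.718). The size of this value thus depends on each of the WT libraries.

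Elmo1, the engulfment adaptor below these receptors, lies at chr13:20090596-20608353 on the plus strand (ENSMUSG00000041112). Its level was 93.7, 90 and 87.9 CPM in Trem2 KO libraries, against 84.4, 83.4 and 90.8 CPM in WT libraries. The groups overlapped. The log2 difference was 0.07 with a 95% interval of -0.02 to 0.16 (edgeR adjusted p = 0.256). Elmo1 has the longest gene model of the 10 genes, at 12580 bases, and its estimate was -0.04 with the length trend removed. It shares exon bases with the antisense RNA Gm32036, which had 17 reads over the libraries against 8644 for Elmo1.

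Cd300lf, known to bind phosphatidylserine and other lipids and to modulate uptake of dying cells in mice, had the largest called change of the 10 genes. The gene (ENSMUSG00000047798) lies at chr11:115116214-115133992 on the minus strand. It was read at 190, 193 and 178 CPM in Trem2 KO libraries, against 127, 129 and 127 CPM in WT libraries. The lowest Trem2 KO library stood well above the highest WT library. Its log2 fold change was 0.55 (SE 0.0375, 95% interval 0.47 to 0.62, edgeR adjusted p = 1e-17), larger in absolute size than that of 89.5% of tested genes. The gene overlaps Rab37 on the other strand without shared exon bases, and Rab37 had 34 reads over the libraries against 15498 for Cd300lf. The window before its start (chr11:115133993-115134242, minus strand, RefSeq, GRCm38.p6) is shown beside this change. It held no GC box and 1 TATA box, in capitals, on the reverse strand at 28 to 23 bases before the start, and 12.4% of all windows held a TATA box on either strand.
Cd300lf: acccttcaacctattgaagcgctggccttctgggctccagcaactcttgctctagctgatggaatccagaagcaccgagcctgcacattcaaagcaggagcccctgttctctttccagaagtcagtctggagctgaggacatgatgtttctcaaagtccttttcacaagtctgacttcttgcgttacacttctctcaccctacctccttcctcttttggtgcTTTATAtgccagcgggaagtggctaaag

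Cd300lf lies on chromosome 11 beside other Cd300 genes, whose values are given here after they were seen. Cd300lb, an activating receptor of the family, averaged 133 ± 2.84 CPM in Trem2 KO and 103 ± 0.815 CPM in WT libraries (SD, n = 3 each) and rose by 0.36 on the log2 scale (SE 0.0398, edgeR adjusted p = 1.02e-10). Cd300e averaged 215 ± 1.18 CPM in Trem2 KO and 185 ± 2.003 CPM in WT libraries and rose by 0.21 (edgeR adjusted p = 9.41e-07). The neighbours Cd300a, Cd300ld and Cd300c2 were read more than Cd300lf, at means of 440, 777 and 290 CPM in Trem2 KO and 452, 785 and 302 CPM in WT libraries, and were not called (edgeR adjusted p = 0.369, 0.717 and 0.136). The rise was thus not shared by every expressed gene of the cluster. Members of this family are similar in sequence, and the sources used here do not say how reads that match more than 1 gene were counted, so the split between them is uncertain.

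**Figure D3:**
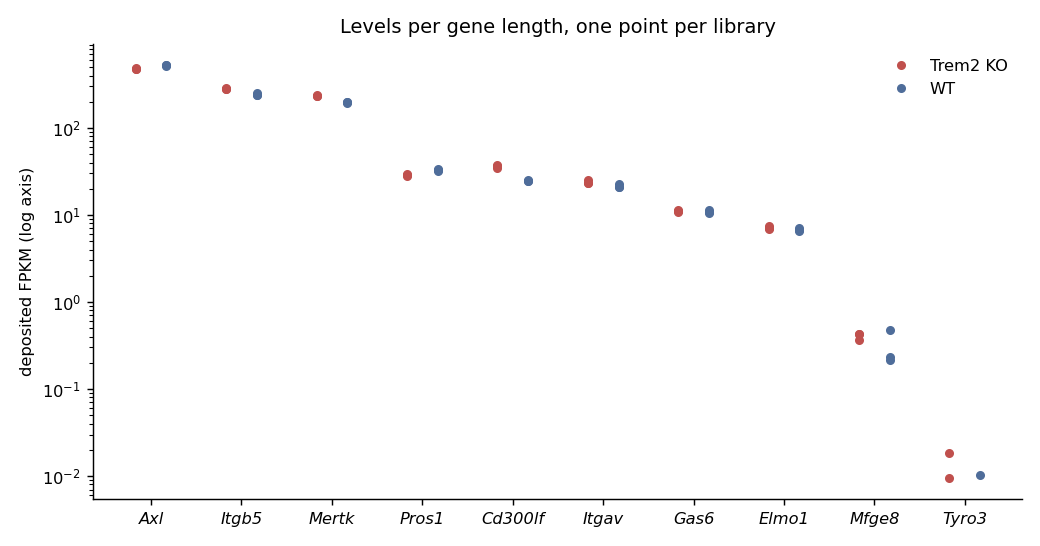
Deposited FPKM of the 10 genes (log axis), 1 point per library, with Trem2 KO left of WT for each gene and genes ordered by their WT mean. Libraries in which Tyro3 is 0 are not drawn. Axl leads in both groups, and Cd300lf and Pros1 change places between them.

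Levels per gene length, in the authors' deposited FPKM, spanned a wide range. Axl was the highest at 481 ± 3.90 FPKM in Trem2 KO and 522 ± 10.6 FPKM in WT libraries (SD, n = 3 each), rank 65 of all genes in WT. Itgb5 followed at 282 ± 3.23 FPKM in Trem2 KO and 243 ± 6.16 FPKM in WT libraries, and Mertk at 234 ± 3.77 FPKM in Trem2 KO and 197 ± 2.78 FPKM in WT libraries. These 3 genes stood apart from the rest: mean Mertk FPKM was 6.47 times that of the next gene in Trem2 KO libraries and 6.04 times in WT libraries.
Next came a middle group of genes. Cd300lf was at 36.1 ± 1.51 FPKM in Trem2 KO and 24.7 ± 0.235 FPKM in WT libraries, Pros1 at 28.7 ± 0.858 FPKM in Trem2 KO and 32.7 ± 0.917 FPKM in WT libraries, and Itgav at 24.0 ± 0.936 FPKM in Trem2 KO and 21.4 ± 1.03 FPKM in WT libraries. Gas6 was at 11.1 ± 0.266 FPKM in Trem2 KO and 10.9 ± 0.454 FPKM in WT libraries, Elmo1 at 7.15 ± 0.228 FPKM in Trem2 KO and 6.82 ± 0.310 FPKM in WT libraries, and Mfge8 at 0.405 ± 0.0329 FPKM in Trem2 KO and 0.307 ± 0.145 FPKM in WT libraries. Within each group of libraries, no neighbours in this order overlapped. The order differed between groups at 1 place: Cd300lf stood above Pros1 in Trem2 KO libraries and below it in WT libraries.

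Since Mertk rose and Axl fell, the ratio of their FPKM within a library was compared as a description, chosen after the values were seen. It was 0.489, 0.489 and 0.477 in Trem2 KO libraries, against 0.376, 0.382 and 0.376 in WT libraries. The groups were far apart relative to their spread, with Axl the more abundant kinase in all 6. The summed FPKM of Mertk, Axl and Tyro3 was 715 ± 6.62 in Trem2 KO and 720 ± 13.3 in WT libraries (SD, n = 3 each), and the groups overlapped.
The ratio of Gas6 to Pros1 was 0.392, 0.387 and 0.388 in Trem2 KO libraries, against 0.330, 0.356 and 0.311 in WT libraries, with no overlap. Pros1 was called lower and Gas6 was not called, as given above. The ratio of Itgav to Itgb5 was 0.0826, 0.0840 and 0.0888 in Trem2 KO libraries, against 0.0903, 0.0863 and 0.0873 in WT libraries. These last ranges overlapped, in contrast to the other pairs. The groups did not overlap for 41.6% of single tested genes. No such share was computed for ratios, and no ratio was tested.

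**Figure D4:**
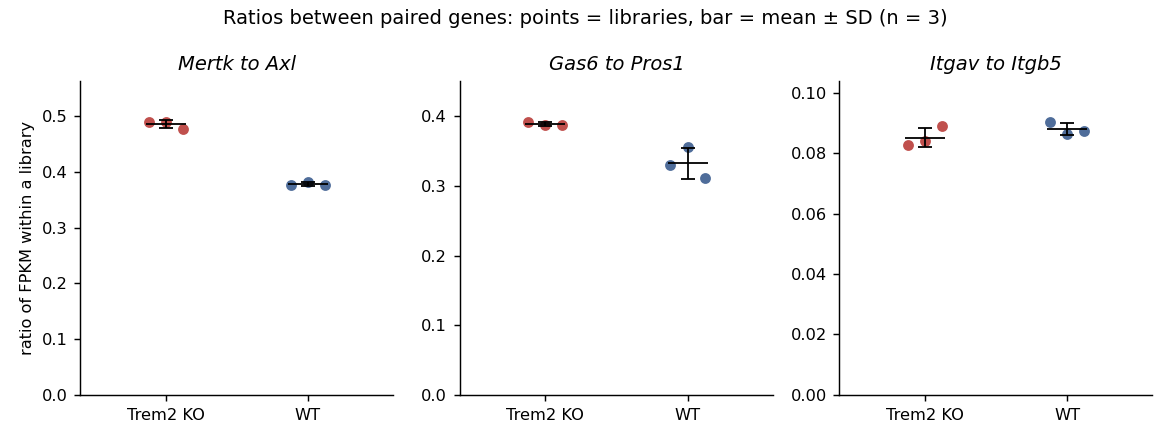
Ratio of deposited FPKM between paired genes within each library (points), with the mean and SD as bars (n = 3 per group), Trem2 KO left of WT. The Mertk to Axl ratio averages 0.485 in Trem2 KO and 0.378 in WT libraries, the Gas6 to Pros1 ratio 0.389 in Trem2 KO and 0.332 in WT libraries, and the Itgav to Itgb5 ratio, at 0.0851 in Trem2 KO and 0.0880 in WT libraries, overlaps between groups.

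Other genes of the pathway were grouped in 7 lists of 134 unique genes, of which 125 were tested, 41 were called higher and 22 lower, with a median log2 change of 0.03 against -0.01 over all genes. Scaling by total counts instead gave 48 higher and 13 lower among these genes. The count of each list is to be read beside the 15.3% of all tested genes called higher and the 15.1% called lower, and beside the 59.1% called in either direction among genes of at least 100 CPM, and nothing is read from these counts about a list alone. Receptors for dying cells other than the 10 genes held 8 higher and 1 lower of 18 tested (15.3% and 15.1% of all tested genes), with a median of 0.07. Itgax, the alpha X integrin, was read at 50.1, 51.2 and 47.8 CPM in Trem2 KO libraries, against 11.3, 10.7 and 12.98 CPM in WT libraries, a log2 change of 2.09. Stab1, a scavenger receptor that binds phosphatidylserine, rose by 0.56 and Cd36, a fatty acid and oxidised lipid receptor, by 0.44 on the log2 scale. Stab1 shares exon bases with Nt5dc2 on the other strand, which had 1391 reads over the libraries against 34146 for Stab1. Timd4, the phosphatidylserine receptor of resident macrophages, averaged 565 ± 5.16 CPM in Trem2 KO and 716 ± 28.6 CPM in WT libraries and fell by 0.34 on the log2 scale.

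Bridging molecules and opsonins other than Gas6, Pros1 and Mfge8 held 5 higher and 7 lower of 18 tested, with a median of 0.01. Cfp, which encodes properdin, averaged 2167 ± 59.8 CPM in Trem2 KO and 2598 ± 76.7 CPM in WT libraries and fell by 0.26 on the log2 scale. The C1q chains C1qa and C1qb, whose protein coats dying cells, fell by 0.21 and 0.15. C4b, a complement component, rose by 0.17 and lies 13.6 Mb from Trem2 on chromosome 17. None of the 10 efferocytosis genes is on that chromosome.

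The engulfment machinery held 8 higher and 3 lower of 20 tested, with a median of 0.07. The tyrosine kinase Abl2 rose by 0.29, the exchange factor Trio by 0.28, the Elmo1 paralogue Elmo2 by 0.19 and the actin regulator Wasf2 by 0.15 on the log2 scale. Processing and signalling genes of the TAM receptors held 3 higher and 2 lower of 18 tested, with a median of 0.00. Pik3r1, a regulatory subunit of PI3 kinase, rose by 0.47 and Socs3, a brake on cytokine signalling, by 0.32. Rhbdf2, a partner of the sheddase Adam17, fell by 0.15.

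Receptors for signals of dying cells and for signals that restrain uptake held 6 higher and 2 lower of 13 tested, with a median of 0.03. Cx3cr1, the fractalkine receptor, averaged 15.1 ± 1.19 CPM in Trem2 KO and 5.52 ± 0.576 CPM in WT libraries, a log2 change of 1.46. It is also counted among the monocyte markers below. The span of its gene model also covers Wdr48, Csrnp1 and Gorasp1, which had 4642, 4149 and 2407 reads over the libraries against 1029 for Cx3cr1 and share no exon bases with it in the annotation. Gpr132, a receptor for oxidised and lysophospholipids, rose by 1.65 from few reads, with 2.83, 1.34 and 0.883 CPM in Trem2 KO libraries, against 0.639, 0.575 and 0.384 CPM in WT libraries. The inhibitory receptor Lilrb4a rose by 0.26 and the sialic acid receptor Siglec1 by 0.19. Lilrb4a has a near-identical paralogue, so its reads are uncertain.

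Genes for digestion of the engulfed cell held 1 higher and 5 lower of 21 tested, with a median of -0.03. Uvrag, a part of a lipid kinase complex of autophagy and endosomes, rose by 0.21, while Mon1b, which helps phagosomes mature, fell by 0.25, the lysosomal membrane protein Lamp1 by 0.10 and the LC3 protein Map1lc3a by 0.22. Genes of the response to engulfed cells held 10 higher and 2 lower of 18 tested (15.3% and 15.1% of all tested genes), with a median of 0.17. The cholesterol exporters Abcg1 and Abca1 rose by 0.28 and 0.21, the cytokine Il10 by 0.57 and the growth factor Vegfa by 2.19 on the log2 scale. Vegfa and Abcg1 lie 2.33 and 17.3 Mb from Trem2 on chromosome 17. The listed genes named here were among the 4 of smallest p in each list.

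**Figure D5:**
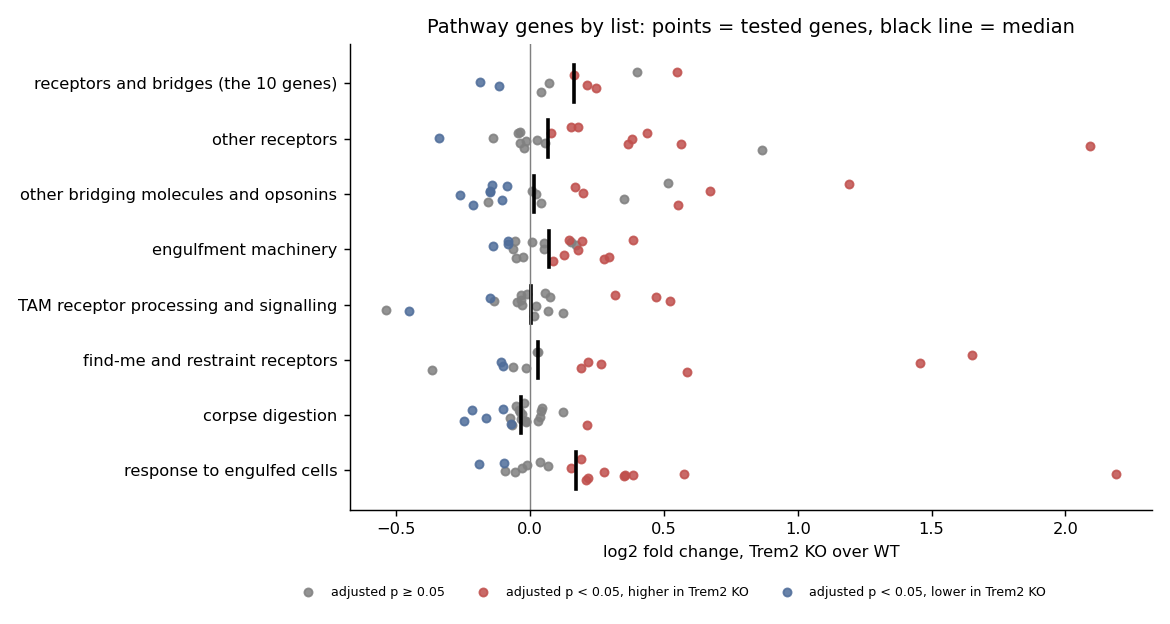
Log2 fold change, Trem2 KO over WT, of the tested genes in the 10 genes and in each of the 7 pathway lists (points), with the list median as a black line. Red points were called higher, blue points lower and grey points were not called at an adjusted p of 0.05. The medians run from -0.03 for corpse digestion to 0.17 for the response to engulfed cells.

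Markers of other liver cells moved in the same libraries. Their counts, too, stand beside the 15.3% of all tested genes called higher and the 15.1% called lower. Of 16 sinusoidal endothelial markers 13 were called higher and 2 lower, with a median log2 change of 0.44. Their sum was 2083 to 2098 CPM in Trem2 KO libraries, against 2109 to 2127 CPM in WT libraries, and most of it was Cdh5, at 1129 CPM in Trem2 KO and 1257 CPM in WT libraries. The summed level was thus slightly lower while most markers were higher, and it mostly followed Cdh5. Whether the Cdh5 reads came from endothelial cells or from the Kupffer cells themselves was not tested. Without Cdh5 and Stab2 (429 CPM in Trem2 KO and 406 CPM in WT libraries), the 2 most abundant markers, left out after their values were seen, the other 14 summed to 528 to 536 CPM in Trem2 KO libraries, against 449 to 460 CPM in WT libraries, a ratio of 1.17. None of these markers was at 0 in all libraries. Endothelial cells are known to carry TAM receptor and integrin transcripts and, as given above, Pros1. The part of these cells in the values of Mertk, Axl, Itgav, Itgb5, Gas6 and Pros1 was not tested.

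Stellate and fibroblast markers held 3 higher and 0 lower of 12 tested, with a median log2 change of -0.27, yet summed to 264 to 268 CPM in Trem2 KO libraries, against 216 to 224 CPM in WT libraries. Most of that sum was Ecm1, at 200 CPM in Trem2 KO and 160 CPM in WT libraries, while the collagen gene Col1a1, a defining marker, was at 0.158 CPM in Trem2 KO and 0.170 CPM in WT libraries. Monocyte markers held 4 higher and 2 lower of 10 tested, with a median log2 change of 0.29. They summed to 2040 to 2077 CPM in Trem2 KO libraries, against 2065 to 2100 CPM in WT libraries. Ly6c2, which defines classical monocytes, was at 0.713 CPM in Trem2 KO and 0.554 CPM in WT libraries, so other markers of the list made up nearly all of that sum. Of the lists with smaller sums, B and plasma cell genes (0 higher, 3 lower, 7 tested) summed to 91.98 to 102 CPM in Trem2 KO and 117 to 121 CPM in WT libraries, and dendritic cell genes (1 higher, 1 lower, 6 tested) to 99.8 to 103 CPM in Trem2 KO and 97.9 to 103 CPM in WT libraries. T and NK cell genes (1 higher, 0 lower, 4 tested) summed to 8.50 to 9.77 CPM in Trem2 KO and 7.09 to 9.01 CPM in WT libraries. Neutrophil genes (0 higher, 1 lower, 4 tested, Ly6g without a read) summed to 183 to 192 CPM in Trem2 KO and 193 to 209 CPM in WT libraries. Erythroid and platelet genes (2 higher, 0 lower, 7 tested) summed to 62.3 to 63.3 CPM in Trem2 KO and 46.7 to 55.5 CPM in WT libraries, and cholangiocyte genes (0 called, 1 tested) to 1.70 to 2.66 CPM in Trem2 KO and 1.79 to 3.32 CPM in WT libraries. The part of all of these cells in the values of the 10 genes and of the pathway lists was not tested. Some genes are in both a pathway list and a marker list. They are Cx3cr1 (monocyte), Timd4 (Kupffer cell), Stab2 and Pecam1 (endothelial) and Hgf (stellate).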

How the data were processed

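Sorted Kupffer cell RNA of 3 Trem2 KO and 3 WT libraries was grouped by sample title. The counts deposited by the authors are whole, unnormalized reads per gene. The FPKM deposited by the authors are those counts over gene length and a library constant. The submitters' processing notes list DESeq2 1.16.1, featureCounts 1.5.0-p3, HISAT2 2.0.5 and the builds GRCm38 and mm10. The sources used here do not give the strand setting or how reads matching more than 1 gene were counted, so overlapping genes cannot be told apart.

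The quasi-likelihood test of edgeR (version 4.0.16 under R 4.3.3) was run with genotype as its term, after filterByExpr and TMM scaling, on 13776 of 54532 genes. Genes with a Benjamini-Hochberg adjusted p below 0.05 over all tested genes were called. Standard errors and 95% intervals follow from the quasi-F statistic. The procedure was tested on simulated data. Libraries of a group differed beyond sampling noise (chi-square per degree of freedom 1.98 to 2.93), and each counted as 1 sample. Total counts of 15799351 to 17135603 set the precision, and limits from a count of 0 cover counting error only. The 10 genes and all lists were chosen with earlier results of these data known. Up to 4 called genes per pathway list were named, by smallest p, and 1 gene that this rule selects is not reported here. Promoter windows came from a RefSeq table (GRCm38.p6) that matched all 10 genes. Results were recomputed with RLE or total count scaling, no filter or a stricter one, an adjusted p below 0.01, protein-coding genes alone, DESeq2 1.42.0, limma 3.58.1 (voom, or log2 of FPKM plus 1 or plus 0.1), a trend on gene length taken out, replicate number as a block, and each library omitted. A fixed biological coefficient of variation, with a likelihood ratio test, was tried after the data were seen.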

Additional observations from a re-analysis of the deposited data

How the results depend on the processing

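Under the 19 other settings tried, leaving out each library included, Mertk (log2 0.23 to 0.28), Itgb5 (0.20 to 0.25), Cd300lf (0.53 to 0.58), Axl (-0.13 to -0.09) and Pros1 (-0.21 to -0.16) kept their direction and their calls, while Gas6 and Mfge8 were called in none. Itgav kept its call in 17 and lost it with the gene length trend removed, without and with the replicate block (both 0.07). Elmo1, never called, changed sign in those fits (-0.0446 without the block and -0.0445 with it). Leaving out 1 library gave 4 higher and 2 lower calls among the 10 genes every time, 3377 to 3909 called genes over all genes (4182 with all libraries), and 33 to 37 higher and 16 to 22 lower calls over the pathway lists (41 and 22 with all libraries). The lists' lower calls numbered 13 at an adjusted p under 0.01 and 13 with total counts, and all genes called lower numbered 1359 at that threshold and 1384 with DESeq2, against 2079. With total counts 61.3% of all calls were higher, against 50.3% with TMM.

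The calls rest on the very small spread between these libraries. When a biological coefficient of variation of 0.1 was set for every gene, an alternative chosen after seeing the data, 1487 genes were called over all genes, the 10 genes held 1 higher (Cd300lf, adjusted p = 0.000166) and 0 lower, and the lists held 17 higher and 2 lower. At 0.2 these numbers were 371 genes, 0 and 0 among the 10 genes, and 5 and 0 over the lists. Over single pathway lists, lower calls ranged under the 19 settings from 2 to 5 for digestion (5 as reported), 1 to 4 for engulfment machinery (3), 0 to 2 for find-me and restraint receptors (2), 1 to 3 for the response list (2) and 1 to 2 for other receptors (1). Higher calls ranged from 2 to 5 for opsonins (5), 2 to 6 for TAM processing (3) and 1 to 2 for digestion (1). Single libraries sufficed for some of these: lower calls were 3 for digestion without Trem2 KO replicate 1 or 2 or WT replicate 1, 1 for engulfment machinery without Trem2 KO replicate 3 or WT replicate 1 or 2, 1 for find-me receptors without Trem2 KO replicate 1 or 2 or WT replicate 1 or 3, 1 for the response list without Trem2 KO replicate 1 or WT replicate 2, and 2 for other receptors without WT replicate 3, and opsonins had 3 higher without Trem2 KO replicate 2 or WT replicate 2.

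The deviations of same-numbered libraries correlated at -0.00592, 0.0119 and 0.0501, against -0.0417 to 0.0316 for libraries of different number. The highest value was that of replicate 3 of both groups. All were small, and so few libraries cannot settle whether replicate numbers pair them. The replicate block gave 4230 called genes over all genes, with 4 higher and 2 lower among the 10 genes, and changed no call among them. The order of FPKM levels was the same with reads per kilobase computed from the counts. The deposited FPKM are those counts over the same gene lengths, so the order had to match and was not checked independently. Depth limits Tyro3 and Mfge8 most.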
